A study of Mus musculus with 9 samples.

Results

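The cells described here are CD8+ T cells of B16F10 tumours whose reads combined Tcf7 with Pdcd1. They were selected on their own reads: a cell with a T cell receptor beta chain was taken if it held at least 5 reads of Pdcd1, at least 5 of Tcf7, 0 of Havcr2 and 0 of Mki67. These gated cells numbered 2572 of 30026 tumour cells with a beta chain, or 8.57% (95% exact binomial interval 8.25 to 8.89%). They were 699 of 12304 cells in a tumour treated with anti-CD4, 659 of 6412 in the tumour read under sample tag 1 and 1214 of 11310 in the tumour read under tag 2. B16F10 is a transplantable mouse melanoma line, grown here under the skin of female C57BL/6 mice that were 8 weeks old. One mouse received anti-CD4, one received anti-PD-L1 and one received neither; each antibody was given into the peritoneum at 200 µg on days 5 and 9, and tumours were taken on day 14. Sorted cells were outside the reach of an intravascular antibody, negative for markers of myeloid, B, NK and erythroid cells, and TCRβ+ CD8+ CD4-. The labels used here do not say which of tags 1 and 2 carried the anti-PD-L1 tumour and which the untreated one, so these tumours are named by tag. With 1 mouse for each treatment, treatment, animal and cartridge (the anti-CD4 tumour was read apart from the other two) cannot be told apart.

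Exhausted CD8+ T cells arise under lasting antigen and carry PD-1, the inhibitory receptor encoded by Pdcd1. Within them, cells that keep TCF-1, the transcription factor encoded by Tcf7, can renew themselves and give rise to later cells that carry TIM-3, encoded by Havcr2, and cytotoxic molecules. CXCR5, XCL1 and ICOS are further names often used for the earlier state: a homing receptor for B cell follicles, a chemokine that attracts cross-presenting dendritic cells, and a costimulatory receptor. Anti-PD-L1 blocks a ligand of PD-1, and anti-CD4 removes CD4+ cells, regulatory T cells among them.

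Depth bears on any class set by 0 reads of a gene. The values are reads of a targeted gene panel, amplified by PCR, so intervals cover counting error only. Gated cells held a median of 15730 reads in the anti-CD4 tumour, 21700 in the tag 1 tumour and 27170 in the tag 2 tumour. All other beta chain cells held 21580, 17170 and 12910, so the gated cells were the shallower class in the first tumour and the deeper one in the others. The median gated cell held 148, 100 and 184 reads of Pdcd1 and 26, 59 and 89 of Tcf7 in the same order. Just inside the threshold, at 5 to 9 reads of Pdcd1, stood 43, 73 and 93 gated cells. Just outside it, at 1 to 4 reads of Pdcd1 with the other conditions met, stood 65, 171 and 210 cells. At 5 to 9 reads of Tcf7 stood 106, 51 and 68 gated cells, and at 1 to 4 reads 161, 101 and 85 cells outside the gate. The 2 cartridges shared 397 cell barcode numbers, and 56 gated cells carried one of these.

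Gated cells made up 5.68% of beta chain cells in the anti-CD4 tumour (95% interval 5.28 to 6.11%), 10.3% in the tag 1 tumour (9.55 to 11.1%) and 10.7% in the tag 2 tumour (10.2 to 11.3%). The anti-CD4 tumour was read under 2 tags of 1 mouse, which gave 5.75% and 5.61%. When each cell was thinned to 4000 reads and the gate set at 1 read of Pdcd1 and Tcf7 in place of 5, the shares were 6.68%, 11.9% and 12.5%, with the anti-CD4 tumour again the lowest. The later class, with at least 5 reads of both Pdcd1 and Havcr2, went the other way: 44.9%, 6.07% and 11.4%. Cells with at least 5 reads of Tcf7 and 0 of Pdcd1, Havcr2 and Mki67 made up 5.88%, 38.5% and 49.4%. In the anti-CD4 tumour 5530 Havcr2+ Pdcd1+ cells stood beside 699 gated cells, whereas 389 stood beside 659 in the tag 1 tumour and 1291 beside 1214 in the tag 2 tumour.

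**Figure D1:**
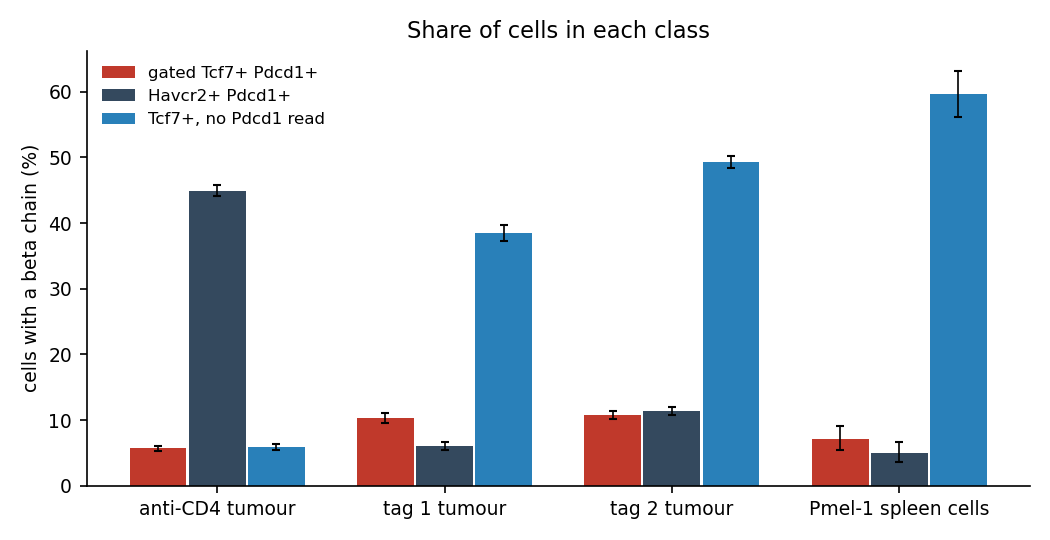
Share of beta chain cells (percent, bars from 0, with 95% exact intervals) in 3 classes set by reads, for the 3 tumours and for spiked-in Pmel-1 spleen cells. Gated cells range from 5.68 to 10.7% of the tumour cells, while the Havcr2+ Pdcd1+ class ranges from 6.07 to 44.9%. In 34 of the 39 Havcr2+ Pdcd1+ Pmel-1 cells the leading beta chain held under 90% of the beta reads.

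Pmel-1 cells, which did not come from a tumour, were put through the same gate. They carry a transgenic receptor for a melanocyte antigen and were added from spleen after sorting. The gate took 56 of 788 of them, 7.11% (5.41 to 9.13%), an interval that overlaps that of the anti-CD4 tumour. Thinned as above, Pmel-1 cells were at 10.0% (8.02 to 12.3%), above the anti-CD4 tumour and overlapping the intervals of the tag 1 (11.1 to 12.7%) and tag 2 (11.9 to 13.1%) tumours. The Pmel-1 cells it took held a median of 27 reads of Pdcd1, below the 100 to 184 of the gated tumour cells. In 23.2% of them the leading beta chain held under 90% of the beta reads, against 7.10% of Pmel-1 cells outside the gate. The same held in 11.4%, 19.1% and 13.1% of gated cells of the 3 tumours, and in 15.6%, 11.2% and 10.7% of the other tumour cells. Among Pmel-1 cells it held in 34 of the 39 that were Havcr2+ Pdcd1+ (87.2%). In Pmel-1 cells that were Tcf7+ without a Pdcd1 read it held in 1.06% of 470. With only cells whose leading beta chain held at least 90% of the beta reads, the gated shares were 5.95%, 9.45% and 10.5%, and 5.95% for Pmel-1 cells. Its part in the other results was not tested beyond the refits given beside them.

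The label was checked on Cxcr5, Xcl1 and Icos, which the gate did not use. Cxcr5 had a read in 8.44% of gated cells of the anti-CD4 tumour, 15.8% in the tag 1 tumour and 18.3% in the tag 2 tumour. In Havcr2+ Pdcd1+ cells, which were deeper, the shares were 0.633%, 8.48% and 5.35%. In Tcf7+ cells without a Pdcd1 read they were 21.6%, 11.7% and 16.4%, so Cxcr5 was not higher in gated cells than in that class in every tumour. Thinned to 4000 reads, the gated shares were 8.01%, 13.7% and 15.6%, against 0.524%, 6.68% and 3.72% in the later class.

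Xcl1 had a read in 30.6%, 39.8% and 69.6% of gated cells. The later class was at 20.3%, 41.1% and 70.7%, slightly above the gated cells in the tag 1 and tag 2 tumours, at a depth of 34380 and 42610 median reads against 21700 and 27170. By level Xcl1 was higher in gated cells in all 3 tumours, at 6409, 6248 and 19120 CPM against 2278, 5349 and 12420, a difference that did not pass the test given with the genes (edgeR adjusted p = 0.219). Tcf7+ cells without a Pdcd1 read were at 27.1%, 21.1% and 23.3%, below the gated cells in all 3. Icos had a read in 80.0%, 71.6% and 69.0% of gated cells and in 85.0%, 86.6% and 81.2% of the later class, again the deeper one. By level Icos stood at 4700, 4048 and 3359 CPM in gated cells against 3137, 4399 and 3288. None of the 3 markers had a read in 13.5%, 16.5% and 11.9% of gated cells, and all 3 had one in 23 of 699, 40 of 659 and 133 of 1214. The Pmel-1 cells that passed the gate had Cxcr5 in 10.7%, Xcl1 in 39.3% and Icos in 32.1%. The markers thus bear out the label in part. Cxcr5 was more often detected in gated cells than in the Havcr2+ class in all 3 tumours. In the anti-CD4 tumour it was less often detected than in Tcf7+ cells without a Pdcd1 read. Xcl1 was higher than in the Havcr2+ class by level in all 3 but by detection in the anti-CD4 tumour alone. Icos was detected less often than in the Havcr2+ class, and its level was clearly higher in the anti-CD4 tumour alone.

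Marker lists of CD8+ T cells and of other cell types were summed in gated cells and in all other beta chain cells. The 7 CD8 T cell genes (Cd8a, Cd8b1, 3 CD3 chains and 2 receptor constant genes) summed to 107400, 99340 and 118100 CPM without further scaling in gated cells. The 7 macrophage genes on the panel summed to 205, 102 and 67.7, against 2048, 139 and 568 in all other cells, and each of the 7 had a read in every tumour's gated cells. The 5 dendritic cell and MHC class II genes summed to 300.0, 769 and 494, against 1969, 372 and 329, with Flt3 at 0 in the gated cells of all 3 tumours. The 5 B cell genes summed to 2175, 3356 and 3923, above the 963, 1895 and 2302 of all other cells in each tumour. Ighm held most of this sum, at 1656, 2238 and 3226, and Cd79a stood at 0, 0 and 2.11. The 3 NK cell genes summed to 9.57, 10.2 and 31.8, against 5.13, 16.5 and 52.7. The 3 CD4 and regulatory T cell genes summed to 252, 383 and 326, against 658, 283 and 310.3, with Foxp3 at 0 in the tag 1 tumour and Cd4 at 0 in the tag 2 tumour.

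**Figure D2:**
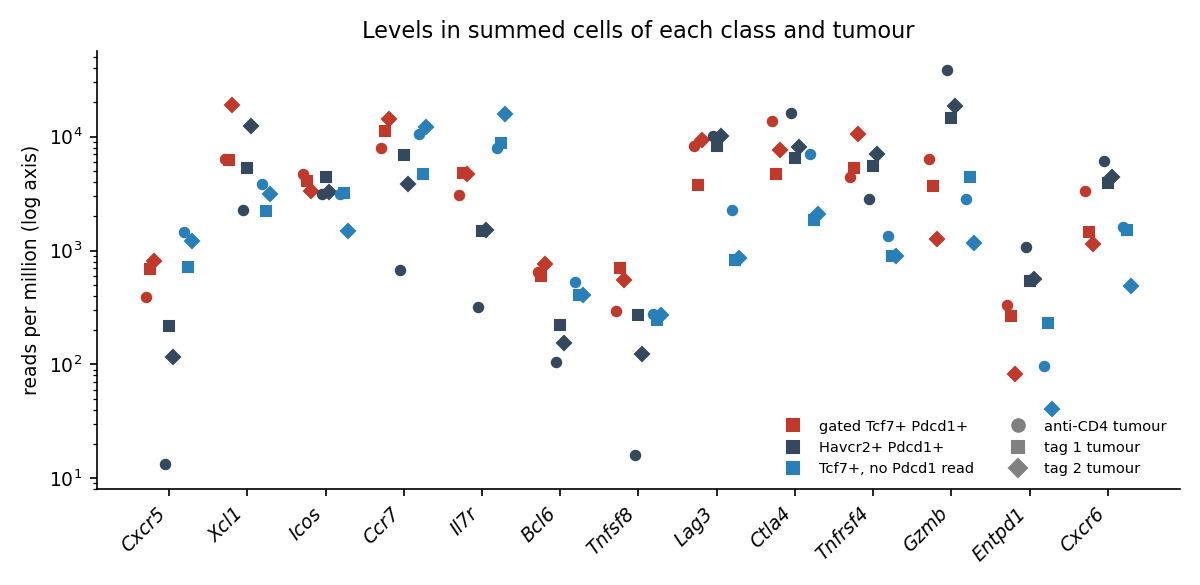
Level of 13 genes (unscaled CPM on a log axis) in gated, Havcr2+ Pdcd1+ and Tcf7+ Pdcd1-negative cells (colours), each symbol 1 tumour. Cxcr5, Bcl6 and Il7r of gated cells lie above those of the later class in all 3 tumours, and Gzmb, Entpd1 and Cxcr6 below.

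Against Havcr2+ Pdcd1+ cells, gated cells held more of Lrrc32, Fas, Ighm, Cxcr3 and Btg1, and less of Pclaf, Ccl3, Lat2, Spp1, Tnfrsf9, Irf8, Lgals1 and Nkg7. Reads were summed by class in each of the 3 mice and fitted with edgeR with the mouse as a block. In such sums, more cells with a gene and more reads in each cell cannot be told apart. Of 786 genes tested, 5 were higher in gated cells past an adjusted p of 0.05 (0.636%) and 8 were lower (1.02%), leaving out the genes of the gate. These counts moved with single mice: 0 genes passed without the anti-CD4 tumour or without the tag 2 tumour, and 22 passed without the tag 1 tumour. Without the mouse block 0 passed, and DESeq2 called 163, among them all 13. With cells thinned to 4000 reads and gated at 1 read 71 passed, again with all 13. With only cells whose leading beta chain held at least 90% of the beta reads 11 passed, 10 of them among the 13, and no called gene changed sign in any alternative tried. Of the 13, 7 passed in cells of 10000 to 40000 reads and 1 with 1 cell per clone and class.

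Ighm, which encodes the heavy chain of IgM, an antibody of B cells, stood at 1858, 1993 and 2787 CPM (reads scaled to a common library size) in gated cells of the anti-CD4, tag 1 and tag 2 tumours. Havcr2+ Pdcd1+ cells stood at 669, 577 and 751, so the classes did not overlap. Its mean log2 difference was 1.72 ± 0.22 (SD, n = 3 mice; edgeR adjusted p = 0.0281). Ighm reads were in 25.8%, 30.4% and 43.9% of gated cells. Ighm was not particular to gated cells among Tcf7+ cells. Without further scaling, Tcf7+ cells without a Pdcd1 read stood at 3247, 1401 and 3052 CPM, and gated cells at 1656, 2238 and 3226. Of 4 B cell genes tested, Ighm among them, 3 were higher in gated cells in all 3 mice and 0 lower, with a median of 1.29 and Ighm the 1 call. Cd79b, a chain of the B cell receptor complex, differed by 1.57 ± 0.46 (edgeR adjusted p = 0.0741) and Igkc, an antibody light chain, by 1.02 ± 0.67 (edgeR adjusted p = 0.149). The part of B cells or of their free RNA in these values was not tested.

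Fas, a death receptor that activated and memory T cells carry, stood at 679, 1247 and 1303 CPM in gated cells against 198, 488 and 313. Every gated value lay above every value of the later class. The mean log2 difference was 1.73 ± 0.36 (edgeR adjusted p = 0.0396). Lrrc32 encodes GARP, which docks latent TGF-β at the cell surface. It stood at 291, 352 and 518 against 87.3, 78.9 and 83.0, a log2 difference of 2.18 ± 0.45 (edgeR adjusted p = 0.0489). Lrrc32 came from few cells, 16, 22 and 96 of the gated ones, and the cell with the most reads held 31.5% of them in the anti-CD4 tumour.

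Cxcr3, the receptor that draws T cells toward interferon-induced chemokines, stood at 4491, 4157 and 2400 in gated cells against 2581, 2190 and 1216. Each tumour had more in gated cells, although the tag 2 gated value lay below the anti-CD4 value of the later class. The log2 difference was 0.90 ± 0.09 (edgeR adjusted p = 0.0307). Tcf7+ cells without a Pdcd1 read held Cxcr3 at 3221, 5565 and 1802 CPM without further scaling. On that scale gated cells stood at 4002, 4668 and 2778, below that class in the tag 1 tumour. Btg1, a gene linked to quiescence, stood at 46930, 45020 and 31930 against 26700, 29220 and 20120, a log2 difference of 0.70 ± 0.10 (edgeR adjusted p = 0.0307).

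Among the lower genes, Pclaf had the largest difference. It encodes a partner of the replication clamp PCNA, and the gate itself required 0 reads of Mki67, another gene of dividing cells. Pclaf stood at 735, 381 and 403 in gated cells and at 12550, 2662 and 6445 in the later class, a log2 difference of -3.63 ± 0.72. Of the 7 proliferation genes tested, Pclaf among them, 6 were lower in all 3 mice, with a median of -1.81, and Pclaf was the 1 that passed the test.

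Ccl3, a chemokine released by activated effector cells, stood at 226, 44.1 and 50.5 in gated cells against 1536, 301 and 899. The log2 difference was -3.23 ± 0.80 (edgeR adjusted p = 0.0489). Tnfrsf9 encodes 4-1BB, a costimulatory receptor induced by antigen. It stood at 1441, 2335 and 4326 against 3599, 6132 and 9023, lower in each tumour, with a log2 difference of -1.26 ± 0.17 (edgeR adjusted p = 0.0281). Irf8, a transcription factor induced by receptor signals in effector cells, stood at 1531, 1293 and 1611 against 3076, 3017 and 4274, a log2 difference of -1.21 ± 0.20.

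Lgals1, which encodes the lectin galectin-1, stood at 40560, 21480 and 37810 in gated cells against 96440, 45430 and 76170. Nkg7, a component of cytotoxic granules, stood at 34310, 15880 and 16400 against 61550, 25320 and 29300. Their log2 differences were -1.11 ± 0.12 and -0.78 ± 0.10, both with an edgeR adjusted p of 0.0281. Lat2, an adaptor of receptor signals, differed by -2.17 ± 0.23. Spp1 encodes osteopontin and stood at 297, 102 and 285 against 772, 304 and 952. Few gated cells carried Spp1: 10, 19 and 75, and 1 cell held 94.0% of its gated reads in the anti-CD4 tumour and 69.2% in the tag 1 tumour.

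**Figure D3:**
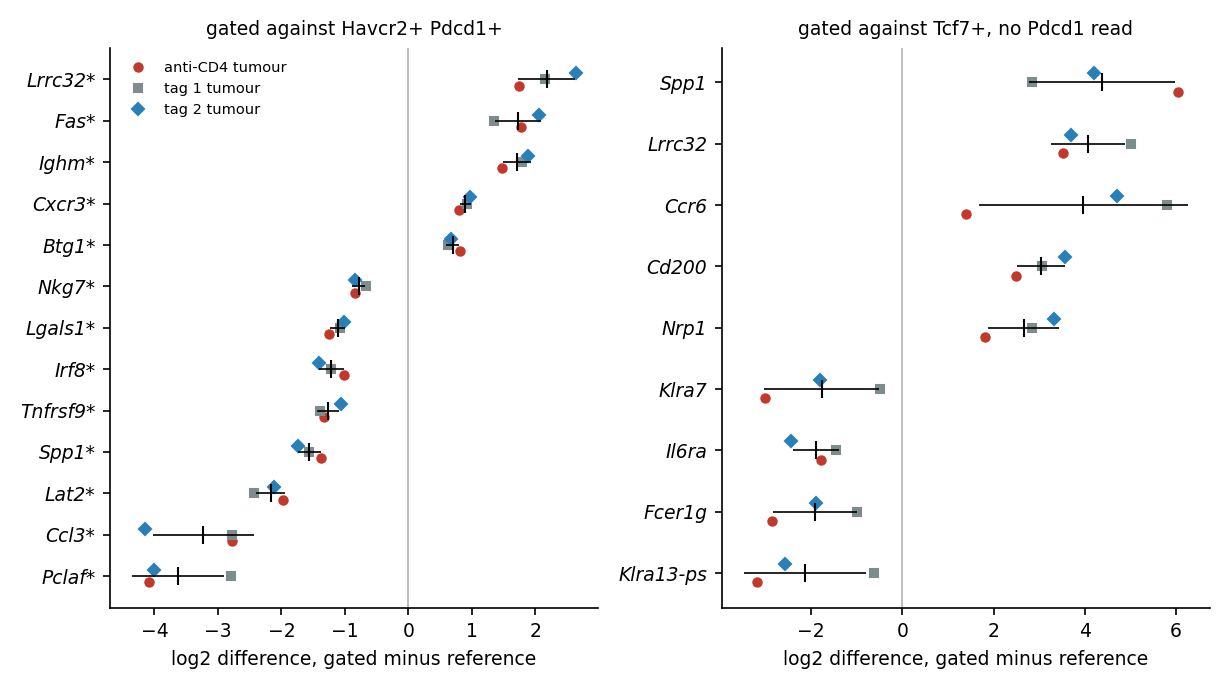
Differences of the named genes in each mouse (log2 of gated over reference, points) with mean and SD over 3 mice (lines), against Havcr2+ Pdcd1+ cells on the left and Tcf7+ cells without a Pdcd1 read on the right. A star marks an edgeR adjusted p under 0.05, which all 13 genes on the left and no gene on the right have.

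Beyond single calls, gene lists are described by how many members had 1 sign in all 3 mice. With 1 cell per clone and class, 19 of 133 named and list genes took the other sign. Over all 786 genes, 20.2% were higher in gated cells in all 3 mice and 22.8% were lower, and the median log2 difference was -0.10. Of the precursor and stem-like list, 12 of 13 tested genes were higher in all 3 mice and 0 lower, with a median of 1.98, and 0 passed the test. Of the naive and central memory list, 7 of 7 were higher, with a median of 1.62. Il7r, the receptor for the survival cytokine IL-7, stood at 3454, 4297 and 4073 against 427, 1342 and 1460 (edgeR adjusted p = 0.0615). Bcl6, a repressor that acts with TCF-1, stood at 728, 534 and 653 against 138, 200 and 150 (log2 difference 1.98 ± 0.51, edgeR adjusted p = 0.0512). Cxcr5 stood at 435, 612 and 698 against 17.6, 197 and 112 (2.97 ± 1.52, edgeR adjusted p = 0.106).

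The effector side was mixed. Of 11 cytotoxic genes tested, 6 were lower in all 3 mice and 3 higher, with a median of -0.31. Gzmb, the cytotoxic protease granzyme B, stood at 7136, 3316 and 1097 in gated cells against 50610, 13110 and 18170 (edgeR adjusted p = 0.0557). Ifng stood at 3232, 1001 and 1393 against 7636, 1821 and 4164 (edgeR adjusted p = 0.0557). Of 11 checkpoint genes, 5 were lower and 3 higher. Lag3 differed by -0.65 ± 0.46 and Ctla4 by -0.40 ± 0.13 (edgeR adjusted p = 0.157 and 0.0741), and Btla, an inhibitory receptor of resting and helper-like cells, by 1.52 ± 0.35 (0.0557). Of 5 short-lived effector genes, 4 were lower and 0 higher. Of 12 homing genes, 8 were higher and 4 lower, with 1 call, Cxcr3. Cxcr6, a receptor for retention in tissue, stood at 3777, 1297 and 987 against 8052, 3580 and 4294 (edgeR adjusted p = 0.0557).

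Tcf7+ cells without a Pdcd1 read differ from gated cells in the Pdcd1 condition alone. Of 803 genes tested against them, 0 passed an adjusted p of 0.05 with edgeR (0%), 120 had an unadjusted p under 0.05, and DESeq2 called 79. Thinned to 4000 reads and gated at 1 read, 19 genes passed, and 23 passed with 1 cell per clone and class. These reference cells were shallower, with medians of 12310, 15780 and 11030 reads. Gene differences were centred at -0.04 in the fit with TMM scaling and at -0.20 with relative log expression scaling. Differences below that shift are read as no direction. The 3 comparisons share the gated sums, so their values are set side by side only.

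Of the lists, checkpoint and costimulatory genes had more members higher in gated cells than lower, and no member passed the test. Over all 803 genes, 24.8% were higher in all 3 mice and 19.1% lower. Of 11 checkpoint genes, 7 were higher and 2 lower, with a median of 1.02, and of 11 costimulatory genes 8 were higher and 0 lower, with a median of 0.61. Lag3, an inhibitory receptor for MHC class II, stood at 9741, 3590 and 8716 CPM in gated cells against 2558, 763 and 825. Its difference was 2.52 ± 0.78 on the log2 scale (edgeR adjusted p = 0.0729). Ctla4, the inhibitory receptor for CD80 and CD86, stood at 16100, 4482 and 7041 against 7836, 1710 and 1991 (1.42 ± 0.39, edgeR adjusted p = 0.0729). Tnfrsf4, the costimulatory receptor OX40, stood at 5183, 5055 and 9674 against 1512, 821 and 853 (2.63 ± 0.86, edgeR adjusted p = 0.0729). Cd200, a ligand of an inhibitory receptor on myeloid cells, stood at 246, 126 and 229 against 43.7, 14.98 and 19.4 (3.04 ± 0.53, edgeR adjusted p = 0.0755).

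Of 7 naive and central memory genes, 6 were lower in all 3 mice and 0 higher, with a median of -1.65, and 0 passed the test. Il7r stood at 3613, 4551 and 4353 in gated cells against 8917, 8009 and 15090 (edgeR adjusted p = 0.0893). For Il7r the gated cells thus lay between the Havcr2+ class and the Pdcd1-negative class in all 3 tumours. Of the 14 precursor and stem-like genes, 4 were higher and 7 lower. Xcl1 stood at 7526, 5894 and 17650 against 4324, 2032 and 3021 (edgeR adjusted p = 0.157), and Cxcr5 at 456, 649 and 746 against 1614, 663 and 1170 (edgeR adjusted p = 0.406). Of 6 proliferation genes, 4 were higher and 1 lower, although both classes had 0 reads of Mki67. Lrrc32 differed by 4.07 ± 0.81, Nrp1 by 2.66 ± 0.78 and Irf8 by 1.96 ± 0.54.

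Against all other beta chain cells together, a mixed reference, 1293 genes were tested. Ccr6 was the 1 gene called higher (0.0773%), and 6 were called lower (0.464%), while 6.73% of genes were higher in all 3 mice and 26.5% lower. The median log2 difference over all 1293 genes was -0.33, so the values below include a shift toward lower. Ccr6, a receptor for CCL20, stood at 244, 190 and 792 in gated cells against 39.8, 50.1 and 128. The log2 difference was 2.39 ± 0.41 (edgeR adjusted p = 0.0376). It had reads in 27 of 699, 30 of 659 and 214 of 1214 gated cells. Pclaf (-2.92 ± 1.04), Gzmb (-2.20 ± 0.82), Gzma (-1.60 ± 0.34) and Ccl5 (-0.71 ± 0.06) were among those lower. These calls were less settled: 0 passed with relative log expression scaling, without the mouse block, or with 1 cell per clone, and DESeq2 called 58. Without the anti-CD4 tumour 3 passed, without the tag 1 tumour 67 and without the tag 2 tumour 11.

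A clone here is the set of cells of a tumour with the same beta chain. Alpha chains were not used, and 1 beta chain can arise more than once, so cells of a clone need not descend from 1 T cell. Gated cells came from 358 of 1474 clones in the anti-CD4 tumour (24.3%), 300 of 1912 in the tag 1 tumour (15.7%) and 469 of 7398 in the tag 2 tumour (6.34%). The 10 clones with the most gated cells held 21.8%, 44.8% and 34.4% of them, while the 10 largest clones held 51.2%, 46.3% and 18.1% of all cells. Gated cells were thus less concentrated in a few clones than all cells in the anti-CD4 tumour, and more so in the tag 2 tumour.

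Junction sequences of clones with lower and higher shares of gated cells are given 5′ to 3′, with the bases between the V and J segments in capitals. They are shown because clones of 1 tumour, some with the same V segment, differed widely in their share of gated cells, and were chosen after their values were seen. The first pair is from the anti-CD4 tumour, the second from the tag 1 tumour and the rest from the tag 2 tumour.
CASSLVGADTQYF: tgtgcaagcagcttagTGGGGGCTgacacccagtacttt
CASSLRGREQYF: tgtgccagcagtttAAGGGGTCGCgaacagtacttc
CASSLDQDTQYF: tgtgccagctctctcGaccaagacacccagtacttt
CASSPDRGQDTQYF: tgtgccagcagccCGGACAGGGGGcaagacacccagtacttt
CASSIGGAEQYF: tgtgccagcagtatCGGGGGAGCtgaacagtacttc
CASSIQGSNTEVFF: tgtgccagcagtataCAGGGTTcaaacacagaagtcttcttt
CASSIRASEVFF: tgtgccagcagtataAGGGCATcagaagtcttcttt
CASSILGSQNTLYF: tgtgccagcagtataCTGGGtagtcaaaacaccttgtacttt

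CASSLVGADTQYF, the largest clone of the anti-CD4 tumour, held 46 gated cells of 2132 (2.16%), while 56.8% of its cells were Havcr2+ Pdcd1+. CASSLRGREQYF held 7 of 14. In the tag 1 tumour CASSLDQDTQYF held 110 of 1485 (7.41%) and alone gave 16.7% of that tumour's gated cells. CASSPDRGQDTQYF held 11 of 28 (39.3%). In both tumours the lower value of the pair belongs to the largest clone. That of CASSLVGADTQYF lay below the median of large clones in its tumour, 6.25%. That of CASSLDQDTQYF was not low among large clones of the tag 1 tumour, whose median was 6.67%.

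The last 4 sequences share the V segment TRBV19. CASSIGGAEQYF held 45 gated cells of 83 (54.2%), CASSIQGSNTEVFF 32 of 58 (55.2%) and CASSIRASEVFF 56 of 161 (34.8%). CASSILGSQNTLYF held 5 of 104 (4.81%), with 60.6% of its cells in the Havcr2+ class. These clones share a V segment and yet range from 4.81% to 55.2%. TRBV19 was on 282 of 1214 gated and 1111 of 10096 other cells of the tag 2 tumour, on 32 of 659 and 273 of 5753 in the tag 1 tumour, and on 102 of 699 and 2487 of 11605 in the anti-CD4 tumour. Counted by cells, its share was thus higher among gated cells in the tag 2 tumour and lower in the anti-CD4 tumour. Counted by clones, TRBV19 was on 12.6%, 6.67% and 10.9% of clones with a gated cell (anti-CD4, tag 1, tag 2). Clones without a gated cell stood at 8.24%, 6.82% and 6.83%, so the anti-CD4 tumour did not go the other way by clone.

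Most large clones held gated and later cells side by side. Of the clones with at least 10 cells, 88 of 107 in the anti-CD4 tumour, 49 of 67 in the tag 1 tumour and 53 of 55 in the tag 2 tumour held a gated cell. In 84, 36 and 46 of these the same clone also held Havcr2+ Pdcd1+ cells. The converse, later cells without a gated one, stood in 19, 8 and 2 large clones. Of all large clones, 103 of 107, 44 of 67 and 48 of 55 held later cells. The overlap is therefore not read as a link between the 2 classes. The median share of gated cells in a large clone was 6.25%, 6.67% and 22.7%, and the highest were 50%, 40% and 61.8%. Among gated cells in clones of 2 or more cells, 79.2%, 76.4% and 83.3% belonged to clones that also held later cells. These shares were not set against those of other cells.

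**Figure D4:**
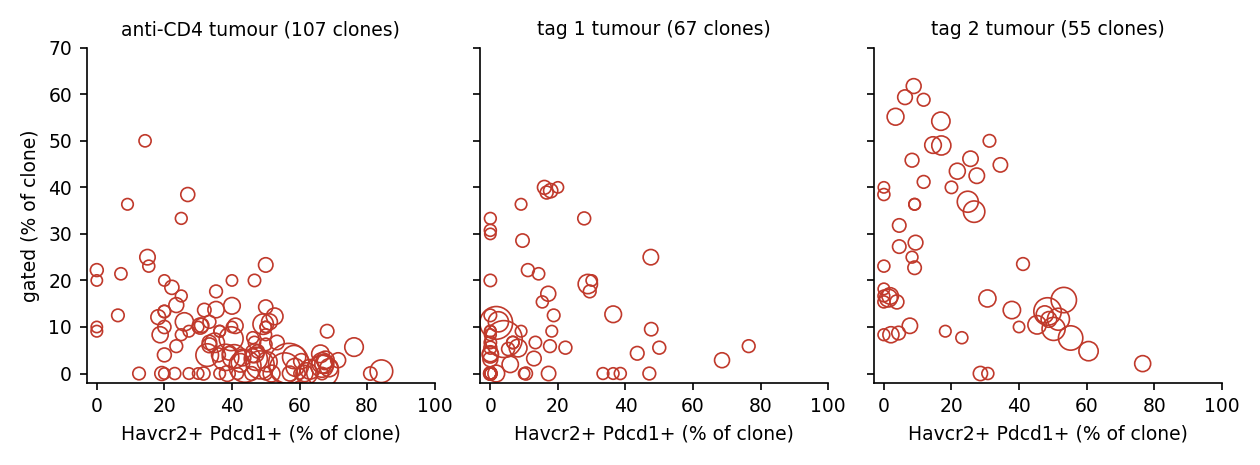
Each circle is a clone of at least 10 cells (107, 67 and 55 clones in 3 panels), larger for clones with more cells, by the percent of its cells Havcr2+ Pdcd1+ (x) and the percent gated (y). Clones of the anti-CD4 tumour lie low on y with a median of 6.25% gated, and those of the tag 2 tumour reach 61.8%.

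The 2 tags of the anti-CD4 tumour sample the same clones and show how far a clone's share repeats. Of 59 clones with at least 10 cells under both tags, 38 held gated cells under both, 15 under one and 6 under neither. Pearson's r of the gated share was 0.655 over the 59 clones, a description of 2 samplings of 1 mouse.

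Gated cells stood between the other classes in clone size. In the anti-CD4 tumour, 12.9% of cells of single-cell clones, 18.4% in clones of 2 to 9 cells and 3.69% in clones of at least 10 cells were gated. In the tag 1 tumour the shares were 10.1%, 13.8% and 9.57%. In the tag 2 tumour they were 4.33%, 20.4% and 21.6%. Clones of 2 to 9 cells were thus above single cells in all 3 tumours, whereas large clones lay lowest in the anti-CD4 tumour and highest in the tag 2 tumour. The difference between large and single-cell clones was -9.25, -0.52 and 17.2 percentage points, and its difference between tumours was not tested. Counted the other way, 54.1%, 57.2% and 60.5% of gated cells sat in large clones, against 94.8%, 81.2% and 93.3% of the Havcr2+ class and 14.5%, 48.1% and 5.02% of the Tcf7+ Pdcd1-negative class.

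Beta chains of CD8+ CD44high cells of the draining lymph node were sequenced in bulk from each mouse. The node matched to tags 1 and 2 rests on clone sharing itself, since the node labels contradict each other. Gated cells of clones listed in their node with at least 10 reads made up 77.0%, 59.8% and 58.1%, against 85.1%, 57.7% and 25.3% of other cells. The difference averaged 8.93 ± 21.3 percentage points (SD, n = 3 mice; exact two-sided sign-flip permutation p = 0.75), and -3.002 without the tag 2 tumour, so it did not exceed the spread between mice. The other cells were a different mix of classes in each tumour. By class, 89.8%, 48.8% and 78.4% of Havcr2+ Pdcd1+ cells were in listed clones. Tcf7+ cells without a Pdcd1 read stood at 31.1%, 49.3% and 7.67%. Gated cells were thus above the Pdcd1-negative class in all 3 tumours, and above the Havcr2+ class in the tag 1 tumour alone. In nodes of another mouse, between 0.858% and 3.79% of gated cells had a listed clone, except for 18.2% of tag 1 gated cells in the lymph node from the anti-CD4 animal. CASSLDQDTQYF supplied 110 of those 120 cells.

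Values within a clone size differed from the pooled ones. Within single-cell clones, 40.1%, 12.5% and 8.53% of gated cells were listed in the node, against 24.8%, 6.24% and 2.80% of other cells. The difference was 9.10 ± 5.39 percentage points, higher in 3 of 3 mice (exact permutation p = 0.25, the smallest that 3 mice allow). In clones of 2 to 9 cells it was 11.3 ± 5.48, again higher in 3 of 3. In large clones, 90.5%, 84.1% and 82.3% of gated cells stood against 91.9%, 83.8% and 81.2% of other cells, with differences from -1.43 to 1.12. Listing belongs to the clone, and 88 of 107, 49 of 67 and 53 of 55 large clones held a gated cell. Many large clones thus counted on both sides of this comparison. The gated share of a large clone still ranged from 0 to 61.8% in the tag 2 tumour, so near equality was not fixed in advance. The part of shared clones in it was not tested.

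**Figure D5:**
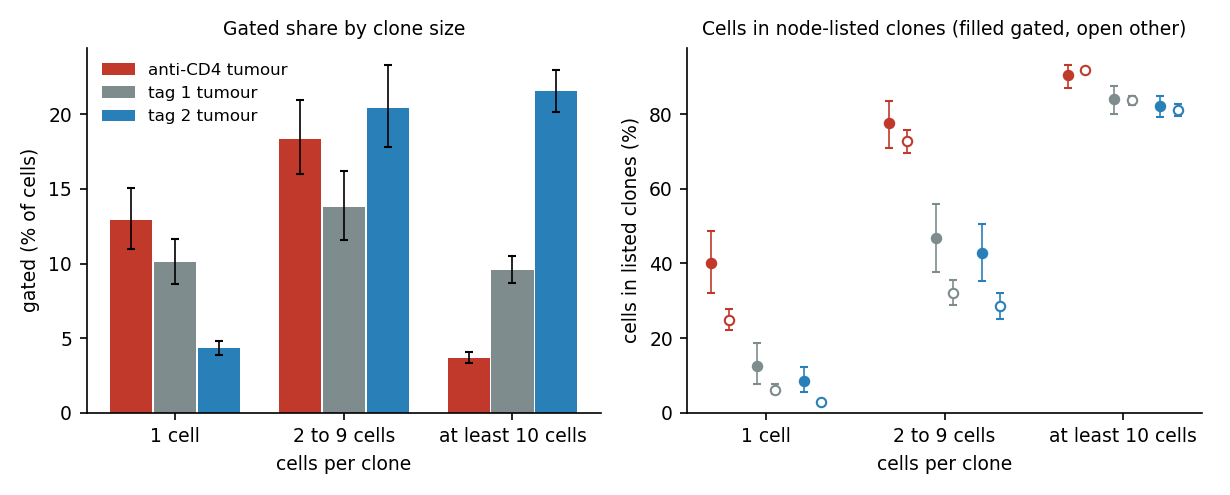
Left, percent of cells gated by clone size in each tumour with 95% exact intervals. Right, percent of cells whose clone is found in their own mouse's node list, filled for gated and open for other cells: gated single cells stand at 40.1, 12.5 and 8.53% against 24.8, 6.24 and 2.80%.

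Gated cells in large clones were also compared with gated cells in single-cell clones, a comparison added after the data were seen. They numbered 378, 377 and 734 against 142, 160 and 305. Of 484 genes tested, 0 passed with edgeR (0%), 63 had an unadjusted p under 0.05 and DESeq2 called 59. In all 3 mice 22.3% of genes were higher in large clones and 21.7% lower. The median gated cell held 170, 105 and 268 reads of Pdcd1 in large clones against 102, 87 and 49 in single-cell clones, and in the tag 2 tumour 31380 against 15430 reads in all.

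Values of 4 genes and of the Klra family are given as a description, chosen after they were seen. Klrc1 encodes NKG2A, an inhibitory receptor that activated CD8+ T cells gain. It had a read in 74.6%, 88.1% and 82.7% of gated cells of large clones against 55 of 142, 112 of 160 and 113 of 305 of single-cell clones (log2 difference of the sums 0.97 ± 0.38). Fasl, the ligand of Fas, had a read in 49.7%, 45.4% and 33.0% against 21.1%, 28.8% and 17.4%. Klra7, a Ly49 receptor, went the other way, with a read in 0.794%, 3.71% and 3.54% against 14.8%, 11.3% and 15.1%. All 8 tested genes of the Klra family were lower in large clones in all 3 mice (lowest edgeR adjusted p = 0.349). These genes are near-identical copies, so the split of reads between them is uncertain. Ccr6 was in 24.5% of gated cells of large clones and 4.59% of single-cell clones in the tag 2 tumour, but in 3.44% and 4.23% in the anti-CD4 tumour.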

How the data were processed

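Per the labels' protocols, sorted tumour CD8+ T cells were tagged, loaded on 2 BD Rhapsody cartridges and sequenced with a targeted panel and for receptors. The authors deposited counts of reads per gene and cell, estimated counts of receptor reads with each chain's fraction of its cell's reads, and read counts and fractions of node beta chains. Bowtie2 2.4.2, cutadapt 3.2 and 3.4, R 3.6.3 and GRCm38 are named in the submitters' processing notes. Reads, not molecules, were counted, so deposited values include PCR duplication. Deposited receptor tables keep chains of at least 32 reads with a share of at least 0.6.

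The members and gene lists were chosen with earlier results of these data known. Called doublets and 10 cells of the Pmel-1 clone under tumour tags were left out. Reads were summed over 2124 genes found in both cartridges (99.9981% and 99.9824% of reads), giving 6 sums in each comparison, 290603510, 132017069 and 230503707 reads in the 3 tumours. Sums were fitted with edgeR 4.0.16 (quasi-likelihood test, TMM factors, genes kept by filterByExpr at 10 reads or more, mouse as a block since both classes come from 1 animal) and adjusted by Benjamini-Hochberg over all genes tested; DESeq2 1.42.0, relative log expression factors, no filter, no block, other gates, thinning, a depth window, clone removal and leaving out each mouse were alternatives. A called p measures spread over 3 mice under different treatments. Named genes were up to 10 in each direction with the largest difference past adjusted p 0.05, 1 sign in all mice and at least 50 CPM, filled to 5 by genes that did not pass, plus list members. On simulated data with known changes, the fit against Havcr2+ cells recovered 11% of 2-fold and 30% of 4-fold changes, and that against Pdcd1-negative cells 2% and 26%. The fit against all other cells recovered 0% and 11%, and that between clone sizes 12% and 36%. Intervals are exact (Clopper-Pearson, 95%). Some genes of the lists are not reported here.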

Additional observations from a re-analysis of the deposited data

Results flagged for a closer look

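Gated minus other cells in node-listed clones was -8.10 percentage points in the anti-CD4 tumour, 2.10 in the tag 1 tumour and 32.8 in the tag 2 tumour, so that tumours went opposite ways; the difference between tumours was not tested, and each is 1 mouse.

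The gated share in clones of at least 10 cells minus that in single-cell clones was -9.25 percentage points in the anti-CD4 tumour, -0.52 in the tag 1 tumour and 17.2 in the tag 2 tumour. The tumours again went opposite ways, and this difference was not tested. In the tag 2 tumour the gated cells of large clones held a median of 31380 reads and those of single-cell clones 15430, and the part of depth was not tested.

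Cells outside the tumour comparisons also met the gate. Of the spiked-in Pmel-1 spleen cells 7.11% were gated. Of the called doublets with a beta chain 4.13% were gated in the anti-CD4 cartridge and 14.8% in the cartridge of tags 1 and 2.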

How the results depend on the processing

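With the gate at 1 read of Pdcd1 and Tcf7, the gated shares were 7.63%, 14.7% and 13.6% (anti-CD4, tag 1, tag 2), and at 10 reads 4.54%, 8.48% and 9.39%. With up to 4 reads of Havcr2 and Mki67 they were 6.15% (anti-CD4) and 11.6% (tag 2), thinned 6.68%, 11.9% and 12.5%, and with a beta share of at least 90% 9.45% (tag 1). The anti-CD4 tumour was the lowest in each full set. Large minus single-cell clones was -14.85 points (anti-CD4) and 0.12 (tag 1, of the other sign) at 1 read, -13.35 (anti-CD4) when thinned and 19.1 (tag 2) with up to 4 reads. The node difference was -4.11 (anti-CD4) and 4.20 (tag 2) in clones of at least 2 cells, and in the tag 2 tumour 26.9 at 1 read and 28.7 by CDR3 amino acids; its mean ranged from -3.002 to 17.5 leaving out each tumour.

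Calls against all other cells (1 higher, 6 lower) were 0 and 0 with relative log expression factors, without the block for the mouse pairing, with 1 cell per clone and in cells of 10000 to 40000 reads. They were 11 and 47 with DESeq2, 11 and 63 unfiltered, 0 higher at 1 read, and 0 and 1 without shared cell numbers. Leaving out a tumour gave 2 to 7 higher and 1 to 60 lower. Against Havcr2+ Pdcd1+ cells (5 and 8), they were 85 and 78 with DESeq2, 51 and 77 unfiltered, 0 and 0 without the block, 2 and 5 at 1 read, 12 and 22 at 10 reads, 1 and 1 with 1 cell per clone, 3 lower in the depth window and 32 and 39 when thinned. Leaving out a tumour gave 0 to 5 higher and 0 to 17 lower. Against Pdcd1-negative cells (0 and 0), they were 31 and 48 with DESeq2, 55 and 57 unfiltered, 4 and 1 at 10 reads, 12 and 11 with 1 cell per clone, and 9 and 10 when thinned. Between clone sizes (0 and 0), they were 16 and 43 with DESeq2, 26 and 32 unfiltered, 1 and 4 without the block, 0 and 1 in the depth window, and 0 and 2 when thinned. The cause of these shifts was not tested. No gene called in the main comparisons had the other sign under any alternative. Signs were less stable over all named and list genes. With 1 cell per clone and class, 53 of 139 changed sign against all other cells, with main log2 differences of up to 4.16. Against Havcr2+ Pdcd1+ cells 19 of 133 did so (up to 2.36), against Pdcd1-negative cells 19 of 139 and between clone sizes 24 of 129.

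Thinning, the beta share limit, the removal of shared cell numbers and the comparison between clone sizes were added after the data were seen. Depth limits what 0 reads of Havcr2, Mki67 or Pdcd1 can show, since a shallower cell can miss a read. Precision is set by 3 mice.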
